A study of Mus musculus with 82 samples.

Results

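The genes described are the potassium channel subunits, taken as every protein-coding gene whose symbol in the deposited RPKM table starts with Kcn, joined by gene ID to the deposited counts. There were 94 of them among 27515 genes. By their symbols 17 belong to the voltage-gated subfamilies Kcna to Kcnd, 15 to the inward rectifiers Kcnj, 14 to the leak channels Kcnk, and 9 to the calcium-activated Kcnm and Kcnn. The other 39 are further Kcn genes: Kcnh, Kcnq, Kcnt, Kcnu, the silent subunits Kcnf, Kcng, Kcns and Kcnv, the auxiliary subunits Kcnab, Kcne and Kcnip, and Kcnrg, which regulates channels and is no subunit.

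The samples were 82 pieces of the suprachiasmatic nucleus (SCN), the circadian clock centre of the hypothalamus, from C57BL/6 mice aged 8 weeks with free access to food and water. Each piece was a hexagon of a grid laid over a tissue section stained with cresyl violet and cut out with a laser, and its RNA was amplified with Smart-seq2 and tagmented with Tn5. The labels place every hexagon by 3 coordinates (anterior-posterior, medial-lateral, dorsal-ventral) and give neither their unit nor which end is anterior, medial or dorsal. Sorted by the anterior-posterior coordinate (47 to 431), the hexagons came from 9 sections holding 4, 6, 12, 14, 12, 14, 13, 6 and 1 hexagons. There was no treatment or control group, no collection time and no named animal, so hexagons may share an animal. P-values over hexagons or sections are then too small, and they measure only the spread between these samples, part of which may be technical.

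Potassium channels let potassium leave the cell and so pull the membrane towards negative voltages. Voltage-gated types end each action potential and set how fast a neuron can fire, leak and inwardly rectifying types set the resting potential, and calcium-activated types follow calcium entry. In the SCN the calcium-activated BK channel, the fast voltage-gated Kv3 group and the A-type currents are known for their part in the daily rhythm of firing, while in astrocytes the inward rectifier encoded by Kcnj10 takes up potassium that neurons release.

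Total counts ran from 11905 to 2843366 per hexagon (median 542267.5), and 5 libraries had less than the median divided by 3. All 11 markers of SCN neurons and all 3 of GABA neurons were found, with median summed levels of 3884 and 1804 CPM per hexagon (CPM are counts scaled to a common library total). Of the 2 glutamatergic markers Slc17a7 had no count and Slc17a6 had a median of 0. Markers of glia were found as well: the summed level of 12 astrocyte genes ran from 1616 to 11630 CPM and that of 11 oligodendrocyte genes from 0 to 24008 CPM. A hexagon is a mixture of cells, so fewer cells of a type and less RNA per cell cannot be told apart in any result below.

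The 94 members together took 0.234% of all counts. A hexagon held a count for 7 to 59 members (median 46), and this number followed the library total, with Pearson's r = 0.68 and Spearman's rho = 0.59 over the 82 hexagons as a description. Only 3 members, Kcnc2, Kcnma1 and Kcna2, had a count in every hexagon, 27 had one in 70 or more hexagons, and 25 had one in 10 or fewer. Kcnk15 had no count at all, which allows a level of up to 0.0492 CPM over the series (3 counts of 60993812, counting error only). Levels are compared between genes only as RPKM, which are scaled for gene length and library total. On that scale 52 members had a mean of 1 or more and 11 a mean of 10 or more. The sum over all members ran from 158 to 492 RPKM per hexagon with a mean of 358 ± 57.5 (SD, n = 82).

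**Figure D1:**
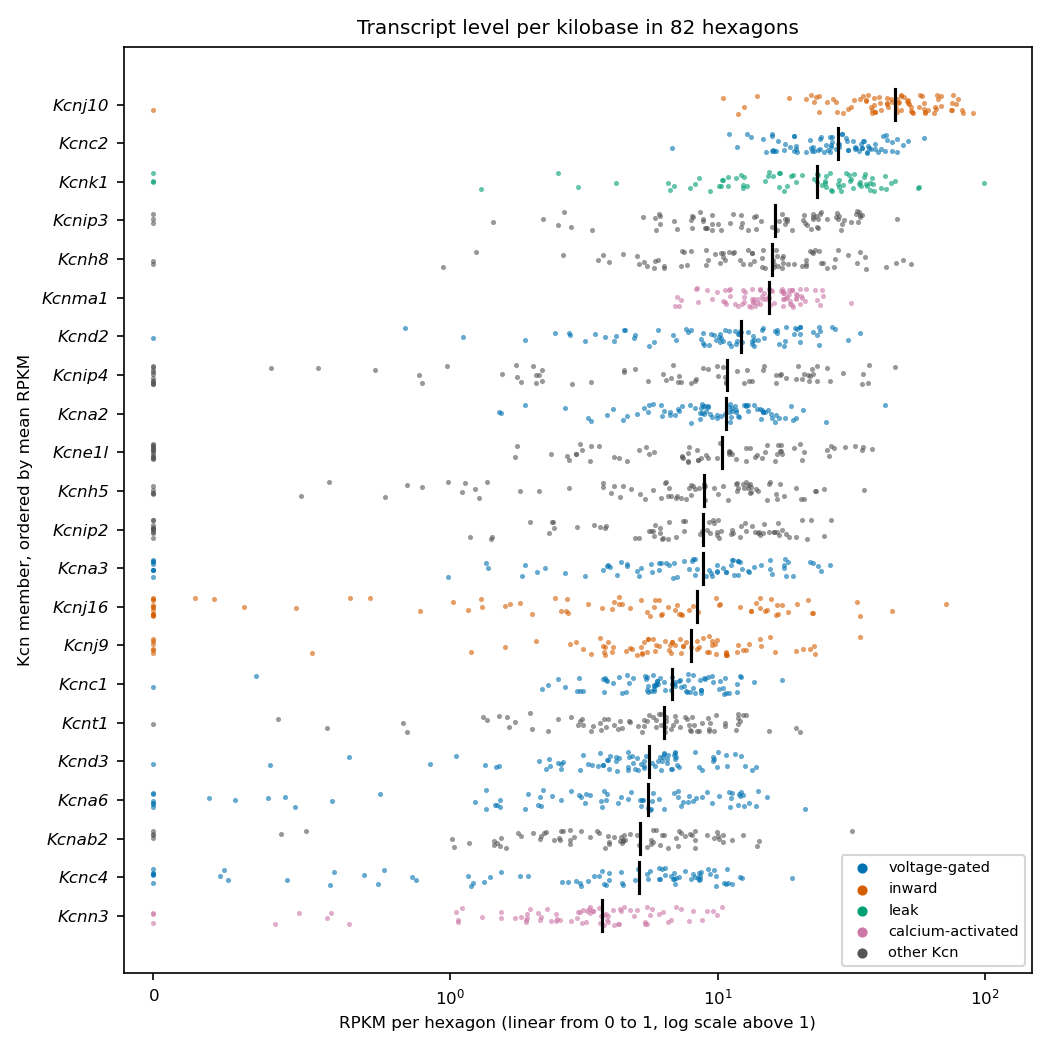
Each point is 1 of the 82 hexagons and gives the RPKM of 22 of the 24 members of highest mean level, coloured by class, with a black line at the mean. Kcnj10 (mean 45.9) leads, followed by Kcnc2 (28.3) and Kcnk1 (23.5), and below these the clouds of neighbouring members drawn overlap almost fully.

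Kcnj10 was the member of highest mean level. It encodes the inward rectifier of astrocytes and oligodendrocytes and lies on chromosome 1 (172341210 to 172374085, plus strand, GRCm38). Its RPKM ran from 0 to 90.4 with a median of 45.7 and a mean of 45.9 ± 18.9 (SD, n = 82), and a count was found in 81 hexagons. The hexagon at 0 was section 4 replicate 4, the shallowest library with 11905 counts. Kcnc2 came next at 28.3 ± 10.6 RPKM, and Kcnj10 was the higher of the pair in 62 of 82 hexagons. Kcnk1 followed at 23.5 ± 15.6 RPKM, below Kcnc2 in 53 hexagons and above it in 29. From there on the order was loose. Kcnip3 exceeded Kcnh8 in 43 hexagons and Kcnh8 exceeded Kcnma1 in 37, so these neighbours (means 16.4, 15.9 and 15.6 RPKM) did not differ beyond their spread.

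Among the 17 voltage-gated members, which made up 27.6% ± 4.98 of the summed Kcn RPKM per hexagon (mean and SD, n = 82), Kcnc and Kcnd were each led by 1 gene, while Kcna2 supplied 38.3% of the Kcna level. Kcnc2, of the Kv3 group whose channels open and close fast enough for narrow action potentials, had 6.77 RPKM in its lowest hexagon, a median of 26.8 and 59.2 in its highest. Its relative Kcnc1 had a mean of 6.77 ± 3.04 RPKM and lay below Kcnc2 in 81 of 82 hexagons. Kcnc4 had a mean of 5.08 ± 3.90 RPKM. Kcnc2 thus supplied 69.4% of the Kcnc level.

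Kcnd genes encode the pore of the A-type current, which turns off quickly and delays the next spike. Kcnd2 had 12.3 ± 7.25 RPKM, Kcnd3 5.52 ± 3.08 and Kcnd1 1.41 ± 1.88 RPKM (SD, n = 82). Kcnd2 was above Kcnd3 in 65 of 82 hexagons and above Kcnd1 in 78. In the Kcna group, which includes channels of axons, Kcna2 led with a lowest value of 1.52, a median of 9.97 and a highest of 42.4 RPKM. That highest value rested on 6 counts in the shallowest library. Kcna3 had 8.78 ± 6.41 RPKM and was below Kcna2 in 49 hexagons and above it in 33, and Kcna6 had 5.47 ± 4.54 RPKM. Kcnb2, a delayed rectifier, had 2.84 ± 2.22 RPKM.

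The 15 inward rectifiers made up 20.4% ± 6.22 of the summed Kcn RPKM, and Kcnj10 alone supplied 62.2% of their level. Kcnj16, which pairs with the Kcnj10 product in astrocytes, had 0 RPKM in its lowest hexagon, a median of 5.31 and 71.6 in its highest, and was below Kcnj10 in 81 of 82 hexagons. The G-protein-gated subunits, opened by inhibitory receptors such as GABA-B, were led by Kcnj9 at 7.93 ± 6.01 RPKM. Kcnj6 had a mean of 2.32 ± 5.40 RPKM and a median of 0.306, and Kcnj9 was the higher of this pair in 69 of 82 hexagons. The highest Kcnj6 value, 43.5 RPKM, was again 3 counts in the shallowest library. Kcnj8, the pore of the vascular KATP channel, had counts in 17 hexagons (mean 1.29 ± 3.81 RPKM), and Kcnj2 in 7 hexagons (mean 0.0713 ± 0.401 RPKM).

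The 14 leak channels made up 9.22% ± 3.89, of which Kcnk1 supplied 69.7%. Kcnk1 encodes TWIK-1, a weak two-pore channel that is abundant in brain. It had 0 RPKM in its lowest hexagon, a median of 23.5 and 99.3 in its highest, and exceeded Kcnk2 in 75 of 82 hexagons. Kcnk2, the mechanosensitive TREK-1 channel, had 2.34 ± 3.82 RPKM and counts in 43 hexagons, and the acid-sensitive Kcnk9 1.61 ± 2.71 RPKM and counts in 48. Kcnk13, in brain best known from microglia, had counts in 29 hexagons and a mean of 2.00 ± 3.74 RPKM.

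The 9 calcium-activated members made up 7.40% ± 2.45, and the BK pore gene Kcnma1 supplied 60.1% of that. Kcnma1 had a lowest value of 6.93, a median of 15.3 and a highest of 31.5 RPKM. Its SD was 4.72 RPKM. The BK beta subunits were far lower: Kcnmb2 had 1.76 ± 3.84 RPKM with counts in 26 hexagons, and Kcnmb4, the neuronal beta subunit, 1.16 ± 2.06 RPKM with counts in 44. Kcnma1 exceeded Kcnmb4 in 81 of 82 hexagons. Of the small-conductance channels behind the afterhyperpolarisation, Kcnn3 had 3.68 ± 2.40 and Kcnn2 2.90 ± 2.55 RPKM. Kcnn3 was the higher in 48 hexagons and the lower in 32, so their order was not firm.

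The other 39 members made up 35.4% ± 5.68 of the summed level. Kcnh8, of the Elk group of slowly gating channels, had 15.9 ± 11.3 RPKM and Kcnh5, of the Eag group, 8.91 ± 6.91, while the Erg gene Kcnh2 had 2.80 ± 2.59 RPKM. Kcnq3, which encodes a subunit of the M-current that damps repetitive firing, had 1.95 ± 1.80 RPKM, and Kcnq1 had 1.12 ± 1.46. The sodium-activated Kcnt1 had 6.28 ± 4.05 RPKM and Kcnt2 2.79 ± 4.65.

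Among auxiliary subunits the Kcnip genes, calcium-binding partners of the A-type channels, were the most abundant. Kcnip3 had 16.4 ± 10.4, Kcnip4 10.9 ± 10.7 and Kcnip2 8.85 ± 6.64 RPKM, together 10.4% of the summed level with Kcnip1. Kcne1l, a single-pass modulatory subunit, had 10.3 ± 9.39 RPKM and supplied 94.1% of the Kcne level. The beta subunits of Kcna channels, Kcnab2 and Kcnab1, had 5.13 ± 4.48 and 1.46 ± 1.78 RPKM. The silent subunits, which alter Kcnb channels and form none of their own, were low: Kcnf1 had 3.15 ± 4.43, Kcng3 1.41 ± 3.40 and Kcns2 1.09 ± 2.69 RPKM. Kcnu1, known for its role in sperm, had 1.46 ± 2.57 RPKM.

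The counting strand is not given in the sources used here, and 28 members share an exon with another annotated gene. In 26 of these the other gene lies on the opposite strand, among them Kcnma1, Kcnk1, Kcnj6, Kcnj9 and Kcnip4, as well as Kcnq1, which overlaps Kcnq1ot1. Reads there cannot be assigned with certainty. Kcnj10, Kcnc2 and Kcnh8 share no exon with another gene.

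**Figure D2:**
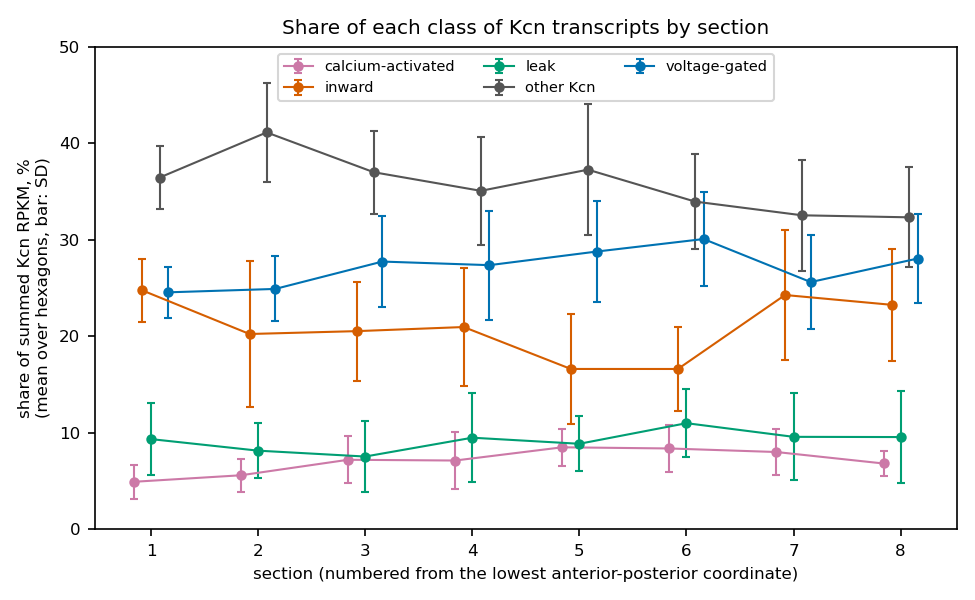
Share of each class in the summed Kcn RPKM (vertical axis, %) by section (horizontal axis), as mean and SD over the hexagons of a section. The other Kcn members had the highest mean and the calcium-activated members the lowest in each of sections 1 to 8, and the inward rectifiers had their lowest means, 16.6%, in sections 5 and 6.

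By section the share of the inward rectifiers was 24.8% ± 3.24 in section 1 (n = 4), 16.6% ± 5.67 in section 5 (n = 12), 16.6% ± 4.38 in section 6 (n = 14) and 24.3% ± 6.71 in section 7 (n = 13). The ranges of 1 SD overlap between sections 5 and 7 and not between sections 1 and 6. Voltage-gated members ran from 24.6% in section 1 to 30.1% in section 6, and calcium-activated members from 4.91% in section 1 to 8.48% in section 5, among sections 1 to 8. These shares were not tested.

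For position, the genes tested were those that reached 10 counts in at least 10 hexagons, 11469 in all, and 46 members were among them: 12 voltage-gated, 6 inward, 5 leak, 3 calcium-activated and 20 others. The other 48 members were too sparse. Slopes along the 2 in-section coordinates, in log2 change of CPM per 100 coordinate units, were fitted within sections by edgeR's quasi-likelihood test with Benjamini-Hochberg adjustment over all genes tested. To show the values, each in-section coordinate was divided into a low, a middle and a high tier of 27, 28 and 27 hexagons.

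Along the dorsal-ventral coordinate none of the 46 members passed an adjusted p of 0.05, where 0.793% of all genes tested did. At an unadjusted p under 0.05 there were 7 members, against 8.46% of all genes, and DESeq2 called 1 member, Kcnj6, and 1.34% of all genes. With all genes of 1 count in 2 libraries kept, 6 of 91 members passed in edgeR, against 3.33% of all genes. The slopes of 34 of the 46 were negative (30 with RLE scaling) and their median was -0.050, while the median of all genes was 0.0026. Of all genes tested 48.5% had a negative slope. The median of the members moved to -0.019 without section 3 (26 of 42 negative), to -0.030 without section 7 (25 of 42) and to -0.030 with a minimum of 10 counts in 20 libraries (27 of 38). These counts hold only for members that passed the count minimum.

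Kcnj6, which encodes a G-protein-gated subunit, came nearest. It had 0 to 98.4 CPM with a median of 5.19 in the low dorsal-ventral tier (coordinates 301 to 578), 0 to 73.0 with a median of 4.97 in the middle tier, and 0 to 42.1 with a median of 0 in the high tier (743 to 917). The ranges overlap, counts were found in 17, 17 and 11 hexagons of these tiers, and the value of 98.4 is the shallowest library with 3 counts. The slope was -0.67 (SE 0.19, edgeR adjusted p = 0.0707), negative in 7 of 8 sections. It passed without section 8 (-0.85, adjusted p = 0.00681), with astrocyte markers in the model (-0.69, adjusted p = 0.0317), in DESeq2 (-0.71, adjusted p = 0.0220) and with all genes of 1 count in 2 libraries kept (-0.66, adjusted p = 0.0242). Without the 5 shallow libraries it was -0.67 (adjusted p = 0.120), and the slope was negative under every alternative run.

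Next were the silent subunit Kcnf1 (-0.50, SE 0.16, adjusted p = 0.171) and the leak channel Kcnk9 (-0.48, SE 0.19, adjusted p = 0.379). Kcnk9 had a median of 10.9 CPM in the low tier, 9.23 in the middle and 0 in the high tier, with a highest single value of 224 CPM (section 2 replicate 4) in the middle tier. Both passed only without section 8, at -0.63 (adjusted p = 0.0173) and -0.69 (adjusted p = 0.0378). Of the positive slopes the lowest unadjusted p-values belonged to Kcnk13 (0.52, SE 0.24, adjusted p = 0.517), Kcnip3 (0.10, SE 0.07, adjusted p = 0.816) and Kcne1l (0.19, SE 0.13, adjusted p = 0.816), and none passed.

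The abundant members had narrow intervals. All slope intervals treat hexagons, or section sums, as independent, and are too narrow where these share an animal. The 95% interval of the dorsal-ventral slope was -0.06 to 0.08 for Kcnma1, -0.08 to 0.07 for Kcnc2 and -0.08 to 0.08 for Kcnj10. For the sparse Kcnk13 it was 0.04 to 1.00, a wide interval at this depth.

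Along the medial-lateral coordinate none of the 46 passed either, where 1.38% of all genes did. The unadjusted count in edgeR was 8, against 11.7% of all genes, and DESeq2 called none, against 3.2% of all genes. With genes of 1 count in 2 libraries kept, 7 of 91 members passed, against 4.34% of all genes. Here 36 of the 46 slopes were positive, under each of the 3 scalings, with a median of 0.12 against -0.0044 for all genes. Of all genes tested 48.7% had a positive slope. All 6 inward rectifiers were among the positive ones. With the letter that opens the description label of a hexagon as a further factor, 32 of 46 were positive, and 34 without the 5 shallow libraries. The median ran from 0.086 with astrocyte markers in the model to 0.14 without section 5 (33 of 46 positive). Kcnf1 had the lowest p, with a slope of 0.75 (SE 0.26, adjusted p = 0.129) that was positive in 8 of 8 sections. It had 0 to 78.9 CPM with a median of 0.817 in the low tier (coordinates 1100 to 1228), 0 to 82.5 with a median of 11.1 in the middle and 0 to 68.7 with a median of 8.10 in the high tier (1348 to 1517), so the tiers overlap over nearly their whole range.

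For Kcna6 the slope was 0.39 (SE 0.16, adjusted p = 0.240), and the medians were 13.1, 30.5 and 39.6 CPM from the low to the high tier. Kcnip4 had 0.40 (SE 0.16, adjusted p = 0.250), negative in 0 of 8 sections, with medians of 22.8, 33.4 and 38.7 CPM. The negative slopes of lowest p were those of Kcnh8 (-0.24, SE 0.11, adjusted p = 0.352), Kcnk2 (-0.43, SE 0.29, adjusted p = 0.651) and Kcnc2 (-0.09, SE 0.06, adjusted p = 0.658). None of these 6 passed under any alternative. The interval for Kcnma1 was -0.16 to 0.05 and that for Kcnj10 -0.02 to 0.23.

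**Figure D3:**
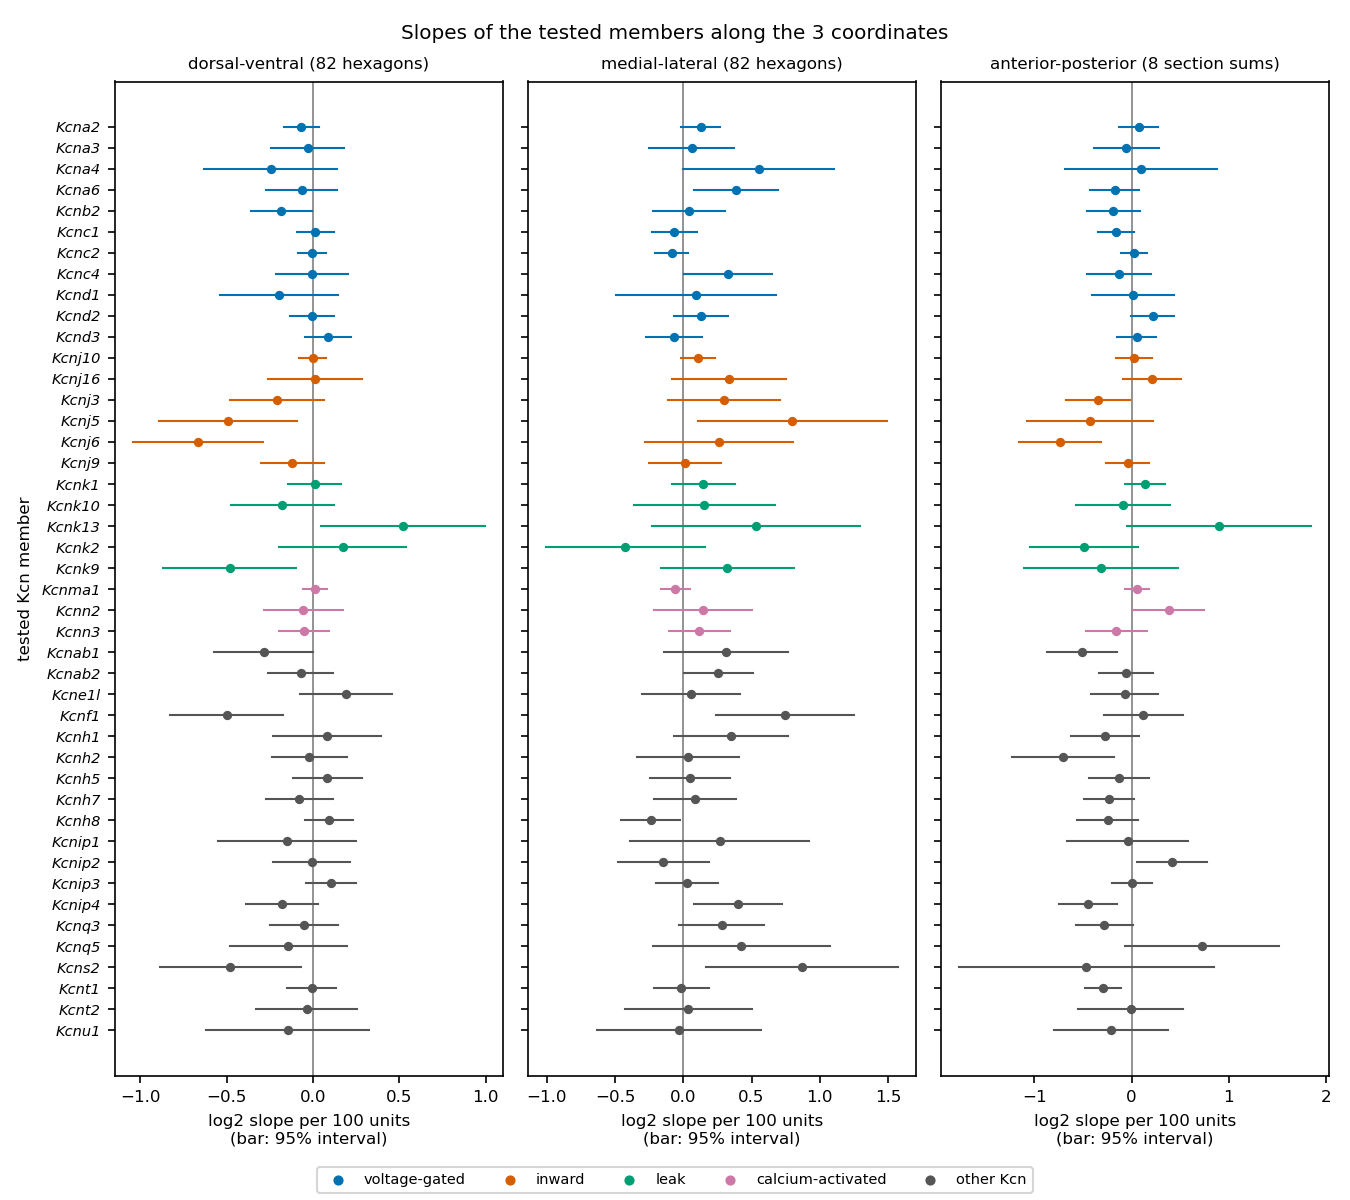
Points are the slopes of 44 of the 46 tested members (log2 per 100 coordinate units) with 95% intervals, along the dorsal-ventral (82 hexagons), medial-lateral (82 hexagons) and anterior-posterior coordinate (8 section sums). Most points sit left of 0 in the first panel (32 of 44) and right of 0 in the second (35 of 44), and no slope drawn passed an adjusted p of 0.05.

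Marker lists of several cell types had slopes beside these. Of 9 general neuron markers, 8 had a negative dorsal-ventral slope (median -0.094, 1 called lower) and 8 a positive medial-lateral slope (median 0.40, 2 called higher). All 11 SCN neuron markers had a negative medial-lateral slope (median -0.29, 4 called lower), and their summed level had medians of 5107, 3850 and 2685 CPM from the low to the high tier. Along the dorsal-ventral coordinate 9 of these 11 had a positive slope (median 0.15, 1 called higher). The medial-lateral slope was positive for all 12 astrocyte markers (median 0.13, 1 called higher) and for all 11 oligodendrocyte markers (median 0.23, none called), and the dorsal-ventral slope for 8 of the 12 (median 0.038) and 10 of the 11 (median 0.12), none called. No defining marker of either neuron list was at 0. With the astrocyte sum in the model the median medial-lateral slope of the members was 0.086 (36 of 46 positive). With the oligodendrocyte sum it was 0.11 (38 of 46 positive). Their median dorsal-ventral slope was -0.051 and -0.052 in these 2 fits (35 and 32 of 46 negative). The neuron lists were not put in the model, and their part in the member slopes was not tested. The 2 coordinates correlate within sections (r = 0.27), and both slopes come from 1 fit.

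Along the anterior-posterior coordinate, tested on counts summed per section over sections 1 to 8, none of the 46 members passed in edgeR, where 0.244% of all genes did. At an unadjusted p under 0.05 there were 8, against 16.7% of all genes, and DESeq2 called 3 (Kcnj6, Kcnt1 and Kcnh2) and 3.89% of all genes. Over single hexagons 2 members passed, against 3.3% of all genes, and with genes of 1 count in 2 libraries kept none of 91 did, against 0.408%. The slopes of 30 members were negative, as were 48.8% of those of all genes. The median of the members was -0.080 against 0.0050 for all genes. It was -0.12 without section 7, -0.051 over single hexagons and -0.14 with hexagons weighted equally in limma. Each section is 1 value here. The letter that opens the description label of a hexagon changes along the sections, and its part in these slopes was not tested.

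Kcnj6 was again first. Its section sums were 41.3, 33.2, 12.9, 9.15, 4.78, 4.75, 5.28 and 11.1 CPM from section 1 to section 8, a mean of 29.1 ± 14.7 in sections 1 to 3 and 7.06 ± 3.54 in sections 6 to 8. All 3 of the former lie above all 3 of the latter. The slope was -0.74 (SE 0.20, edgeR adjusted p = 0.107). It was -1.16 without section 8 (adjusted p = 0.0213), -0.73 in DESeq2 (adjusted p = 0.0413) and -0.89 over single hexagons with both other coordinates in the model (adjusted p = 0.0313). The lone hexagon of section 9, which no slope uses, had 36.2 CPM. The Kcnj6 signal is thin, with 690 counts in 45 hexagons.

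The sodium-activated Kcnt1 had a slope of -0.29 (SE 0.09, edgeR adjusted p = 0.125), and its section sums lay between 41.5 CPM (section 6) and 101 CPM (section 1). In section 1 most of it came from 1 hexagon, replicate 1, at 196 CPM against 29.6 to 41.0 in the other 3. Kcnip4 had -0.45 (SE 0.14, adjusted p = 0.138), with 67.5 ± 24.7 CPM in sections 1 to 3 and 29.5 ± 6.30 in sections 6 to 8. The Kcna beta subunit Kcnab1 had -0.51 (SE 0.17, adjusted p = 0.153), with 25.2 ± 8.29 against 10.4 ± 1.43 CPM in the same groups of sections, and the Erg gene Kcnh2 had -0.70 (SE 0.25, adjusted p = 0.178), with 17.6 ± 3.09 against 6.02 ± 3.86 CPM. The positive slopes of lowest p were Kcnip2 (0.41, SE 0.17, adjusted p = 0.238), Kcnn2 (0.38, SE 0.17, adjusted p = 0.280) and Kcnd2 (0.22, SE 0.10, adjusted p = 0.315). Kcnip2 had 17.8 ± 7.88 CPM in sections 1 to 3 and 39.5 ± 13.8 in sections 6 to 8, and its highest sum, 52.7 CPM, was in section 7. In edgeR neither these 3 nor Kcnt1 and Kcnip4 passed under any alternative, and in DESeq2 Kcnt1 did (-0.30, adjusted p = 0.0444).

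A peak or trough inside the nucleus gives no slope, so both in-section coordinates, their squares and their product were also tested together. By this 5-term test 1 of the 46 members passed, Kcnj10 (edgeR p = 3.74e-04, adjusted p = 0.0263), where 2.03% of all genes did. At an unadjusted p under 0.05 there were 14 members, against 10.7% of all genes. DESeq2 called 1 member and 3.38% of all genes, and with genes of 1 count in 2 libraries kept edgeR called 21 of 91 members and 19% of all genes. The G-protein-gated Kcnj5, named here after its values were seen, came next with an adjusted p of 0.0710.

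Crossing the tiers of both coordinates gives 9 fields. Kcnj10 had its lowest mean in the field that is in the middle tier of both: 190 ± 106 CPM (SD, n = 9), with a range of 65.2 to 410 and a median of 207. In the field of middle dorsal-ventral and low medial-lateral coordinate the mean was 201 ± 76.2 (n = 8) and the median, 171, was the lowest of the 9 fields. The mean was 289 ± 124 (n = 11) with middle dorsal-ventral and high medial-lateral coordinate. With middle medial-lateral coordinate it was 279 ± 117 (n = 8) in the high and 291 ± 96.8 (n = 11) in the low dorsal-ventral tier. The highest mean, 303 ± 110 (n = 4), was in the field of low dorsal-ventral and high medial-lateral coordinate. The field low in both coordinates had 219 ± 99.8 (n = 12), including the shallowest library at 0. The field high in both had 254 ± 106 (n = 12). With high dorsal-ventral and low medial-lateral coordinate the mean was 289 ± 81.4 (n = 7). The ranges of all these fields overlap.

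**Figure D4:**
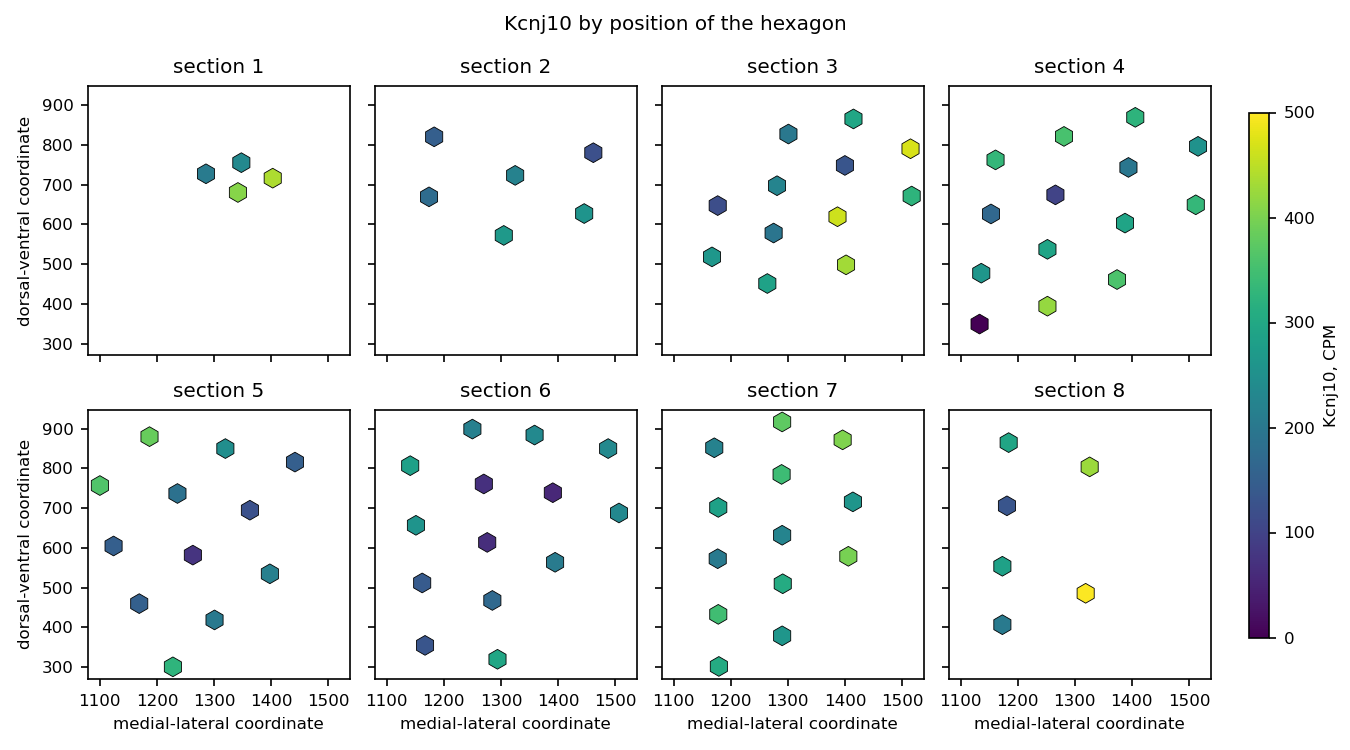
Kcnj10 in CPM (colour) at the medial-lateral and dorsal-ventral coordinate of each hexagon in sections 1 to 8. The lowest hexagons of sections 5 and 6 (74.4 and 55.4 CPM) lie inside the outline of their grid. Those of sections 1, 2, 3, 7 and 8 (207, 123, 118, 205 and 133 CPM) lie at its edge, and the hexagon at 0 CPM in section 4 is the shallowest library.

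The astrocyte markers went with Kcnj10 in some of the 9 fields and not in others. The summed level of the 12 markers was likewise lowest in the middle field, at 4456 ± 2155 CPM (n = 9), and highest, 7427 ± 1871 CPM (n = 11), in the field beside it with high medial-lateral coordinate. Kcnj16 also had its lowest mean in the middle field, 11.9 CPM (range 0 to 26.7), while Kcnma1 had 305 ± 50.5 CPM in the middle field and 223 ± 81.6 beside it. The highest Kcnma1 mean, 308 ± 139 CPM (n = 8), was in the field of high dorsal-ventral and middle medial-lateral coordinate. Neither gene passed the 5-term test (edgeR adjusted p = 0.676 for Kcnj16 and 0.450 for Kcnma1). Where Kcnj10 had its highest mean, the astrocyte sum was 5901 ± 1146 CPM (n = 4). Where Kcnj10 had its lowest median, the sum was 5944 ± 1422 CPM (n = 8). In the field high in both coordinates the sum was 6751 ± 2121 CPM (n = 12), with Kcnj10 at 254 CPM. Within sections Kcnj10 correlated with the astrocyte sum at r = 0.60 and with the oligodendrocyte sum at 0.38, over 76 hexagons of sections 1 to 8 without the 5 shallow libraries. For Kcnj16 the first value was 0.46. These are descriptions on log2(CPM + 1), and the points share library and depth.

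The r of Kcnj10 was 0.63 with Aldoc, 0.62 with Slc1a2 and 0.56 with Slc6a11, 0.19 with Aqp4 and -0.18 with Gfap. With the shallow libraries kept (81 hexagons) these were 0.70, 0.39, 0.87, 0.63 and 0.15, so the order of these markers changed, while r with the astrocyte sum was 0.65. No astrocyte marker was at 0 in the series, and 3 of the 12 passed the 5-term test themselves. With the astrocyte sum added to the model the adjusted p of Kcnj10 became 0.289, and with the oligodendrocyte sum 0.101. It also missed the threshold without section 3 (0.126), section 5 (0.269) or section 6 (0.209), which hold 12, 12 and 14 hexagons. In DESeq2 it was 0.00289.

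**Figure D5:**
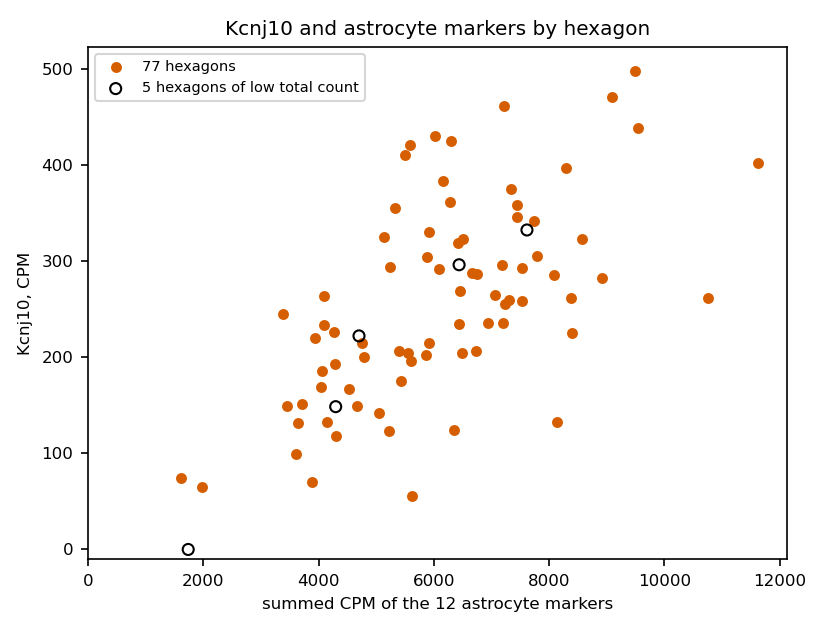
Kcnj10 (vertical axis, CPM) against the summed CPM of the 12 astrocyte markers (horizontal axis) in 82 hexagons, with open circles for the 5 libraries of low total count. Of the 4 hexagons with the lowest astrocyte sums 3 had 0 to 74.4 CPM of Kcnj10 and the other, section 5 replicate 9, had 245 CPM, and the within-section correlation without the 5 libraries was 0.60.

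With neuronal markers the other members correlated in both directions. On the same 76 hexagons the SCN neuron sum correlated with Kcnh8 at 0.39 and with Kcnk9 at -0.51, Kcnab2 at -0.40, Kcnip4 at -0.40 and Kcnf1 at -0.38. With the general neuron sum the signs turned: 0.54 for Kcnip4, 0.54 for Kcnk9 and 0.51 for Kcnf1, against -0.40 for Kcnh8 and -0.46 for Kcnma1. Slc17a6, a marker of glutamatergic neurons, correlated with Kcnk9 at 0.48. Kcnk9 and Kcnf1 have counts in only 48 and 54 of the 82 hexagons.

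Between members such relations were few. Of 351 pairs among the 27 members with counts in 70 or more hexagons, 3 had r above 0.4 and 2 below -0.4, with a median of 0.014. The highest was Kcnc2 with Kcnh8 (0.47), followed by Kcnh8 with Kcnma1 (0.46), and with the shallow libraries kept these were 0.60 and 0.57. The lowest pairs were Kcna6 and Kcnh7, each with Kcnma1 (-0.41 and -0.42), and with the shallow libraries kept these were -0.18 and -0.17. Kcnh8, Kcnc2 and Kcnma1 also correlated with the number of genes detected in a hexagon, at 0.55, 0.36 and 0.36. For Kcnj10 this r was -0.32. The part of that number in the pairs, in the neuronal correlations and in those of Kcnj10 with astrocyte markers was not tested. Kcnh7, an Erg gene, is named here after its values were seen.

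Partner genes outside the Kcn symbols were read from a list of 26, of which 22 were tested: channel partners such as Dpp6 and Cntnap2, and ion transporters. None passed on any of the 3 slopes. By the 5-term test 1 of the 22 passed, where 2.03% of all genes did. Dpp6, a partner of Kcnd channels, had 218 ± 83.8 CPM and slopes of -0.02 (SE 0.04) and 0.02 (SE 0.06). The nearest on a slope was the transporter Slc12a7, at -0.55 (SE 0.16, adjusted p = 0.0572) along the medial-lateral coordinate.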

How the data were processed

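Whole-number counts per gene and RPKM values were both deposited by the authors for the 82 hexagons. GRCm38, STAR and bcl2fastq 2 are named in the submitters' processing notes, and how reads were counted, and with which strand setting, is not given in the sources used here. RPKM equal counts per gene length and library total to within a relative 5.2e-15, so they are no independent evidence. Slopes came from edgeR 4.0.16 (R 4.3.3, TMM, robust quasi-likelihood, section as a factor), and anterior-posterior slopes from counts summed per section. Standard errors are the slope over the square root of F. CPM use TMM-adjusted library sizes. The scripts were tested on simulated data. Alternatives covered scaling, count minimum, libraries, sections, library letter, marker sums and DESeq2 1.42.0. Exon overlaps come from the GRCm38 annotation. Named members were those called, up to 3 per subfamily with mean RPKM of 1 or more, 3 per direction and axis by p, and 6 glial, vascular, microglial or BK genes. The members and lists were chosen with earlier results of these data known. A few genes that this rule names are not reported here.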

Additional observations from a re-analysis of the deposited data

Results flagged for a closer look

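Values that stand apart from the rest of their section were looked for with Dixon's test in 113 combinations of a named, tested member and a section of 4 to 10 hexagons, and 10 were found. The limits used flag about 1 in 20 groups of normally distributed values, and sparse counts need not keep to that rate. Where every other hexagon of a section is at 0, any count is flagged. High single hexagons were Kcnt1 in section 1 replicate 1 (196 CPM, against 29.6 to 41.0 in the other 3), Kcnc1 in section 8 replicate 4 (117 CPM, against 36.9 to 54.5) and, with every other hexagon of the section at 0, Kcnu1 in section 1 replicate 4 (29.6 CPM, 12 counts), Kcnk13 in section 2 replicate 5 (10.8 CPM, 3 counts) and section 8 replicate 1 (24.7 CPM, 39 counts), and Kcns2 in section 8 replicate 1 (5.07 CPM, 8 counts). Low single hexagons were Kcna2 in section 2 replicate 6 (18.5 CPM, against 89.6 to 155), Kcnd2 in section 8 replicate 2 (6.03 CPM, against 43.0 to 103), Kcne1l in section 1 replicate 3 (0 CPM, against 23.0 to 27.7) and Kcnj6 in section 2 replicate 3 (0 CPM, against 24.1 to 87.3).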

How the results depend on the processing

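No member slope named for an axis changed sign under any alternative. The count of members called along the dorsal-ventral coordinate, 0, was 6 of 91 tested with genes of 1 count in 2 libraries kept (3.33% of all genes called). It was 1 with astrocyte markers in the model and 1 in DESeq2 (1.34% of all genes). With each section left out in turn it was 0 to 3, 3 being without section 8. Along the medial-lateral coordinate it was 7 of 91 with genes of 1 count in 2 libraries (4.34% of all genes) and 0 otherwise. Along the anterior-posterior coordinate it was 2 over single hexagons (3.3% of all genes), 3 in DESeq2 (3.89% of all genes) and 0 to 1 with a section left out. By the 5-term test the count of 1 became 21 of 91 with genes of 1 count in 2 libraries (19% of all genes), 0 with oligodendrocyte or astrocyte markers in the model, and 0 to 3 with a section left out. Kcnj5 joined without section 2 or 4, and Kcnj6 and Kcnk9 without section 8. For fits with a section left out or a marker sum added, the share of all genes called is not given. Those counts of members therefore have no background beside them. The adjusted p of Kcnj10 ranged from 0.00289 to 0.289. For single members, 400 values under alternatives kept their side of the threshold or, for mean RPKM, moved by less than 1 SD. That SD is the one between hexagons, a wide limit for a mean. Another 10 came to pass the threshold and 5 no longer passed it. All 5 belonged to the 5-term test of Kcnj10, the only call of the main run and so the only one that could be lost. No paired analysis was possible because replicate numbers only name hexagons within a section. Depth limits the 48 untested members and those with counts in few hexagons.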
